A study of Oncorhynchus mykiss with 525 samples.

Results

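The members are 50 genes that were counted more often in wells exposed to the chemical coded diz, at each of its 3 highest concentrations, than in solvent wells. They were chosen on these counts. Within each group of wells the counts were summed and expressed as CPM, counts scaled to the group's total, after the 4 most counted IDs had been set aside, and L is the log2 ratio of a group's CPM to that of the solvent wells of the same batch, with 5 CPM added to both. Of 44260 Ensembl gene IDs, 5569 had a solvent level of 20 to 1000 CPM in the batch of diz. L was under 0.5 at the highest concentration of the chemicals dca, car, cln and mbz for 3866 of these, which are called eligible below. The members are the 50 eligible genes with the largest value of their lowest L over the 3 highest diz concentrations, and they are ranked by that lowest L. Any difference between these diz wells and the solvent wells was thus set by the choice, and is described below without a test.

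RTgill-W1 is an epithelial cell line from rainbow trout gill. Gill epithelium is the surface at which a fish takes up oxygen, exchanges ions and meets chemicals dissolved in the water, and its cells can change the transcription of genes for the uptake, metabolism and export of foreign compounds. A gene whose transcript level follows the concentration of a chemical over several steps is the usual raw material of a transcriptomic point of departure, the concentration above which expression is taken to change, and deriving such points was the stated purpose of the experiment. The deposited tables carry IDs without gene names, and the name table used here held 0 of them, so no function is given to any member.

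The cells were exposed for 24 h in 96-well plates, and each well gave 1 count profile. Diz wells came at 0.02, 0.07, 0.22, 0.65, 1.95, 5.85, 17.55 and 52.65, in 3-fold steps, with 3 wells per concentration and 24 in all; the labels give no unit and do not expand the code. The reference for the choice was 15 wells with the solvent DMSO and no pesticide. All of these wells belonged to the second batch of the study, in which each of 3 plates held 1 diz well per concentration and 5 solvent wells, pooled in 1 library per plate. The labels do not say whether diz itself was dissolved in DMSO or in water. Each plate was a separate passage of the 1 cell line and carried 1 replicate number, so the replicates are passages, not animals. Tests without the plate as a block took all wells as independent, though wells of a plate shared a passage. Tests with the plate as a block measured the spread left after differences between passages were removed. A further 18 chemicals were measured in their own wells, with 8 concentrations each for all but dca, which had 5 in both batches. Another 24 wells, those of 1 chemical, were not analysed here. In bulk wells such as these, fewer cells of one kind and less RNA per cell cannot be told apart.

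The depth of the diz wells differed between concentrations. The median total count per well was 346400 at 0.02, 369586 at 0.07, 306305 at 0.22, 274302 at 0.65, 202690 at 1.95, 287559 at 5.85, 121521 at 17.55 and 148362 at 52.65. The 15 solvent wells had totals of 158258 to 506267 with a median of 299140. The 2 highest concentrations, both used in the choice, were thus the 2 with the lowest depth, and the part of depth in the members' values was not tested.

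Most members were weakly counted genes. Their solvent level had a median of 31.8 CPM and a range of 20.7 to 555.2 CPM, and 36 of 50 (72%) lay under 50 CPM, against 48.6% of the eligible genes, whose median was 52.5 CPM. A median member had 4 counts in a solvent well, and a median eligible gene 8. At the 3 concentrations that made the choice, the members' median L was 0.67 at 5.85, 0.79 at 17.55 and 0.80 at 52.65, against -0.12, -0.15 and -0.09 over the eligible genes. The lowest of the 3 values of L was at least 0.5 in 26 members and at least 1 in 1 member. Of the 44 members with enough counts to enter an edgeR quasi-likelihood fit of all diz and batch 2 solvent wells, the number past a Benjamini-Hochberg adjusted p of 0.05 was 1 at 5.85 (0.426% of 3990 genes were called higher), 2 at 17.55 (1.05% called higher) and 1 at 52.65 (0.677% called higher). With the plate as a block in that fit these numbers were 2, 6 and 4 (0.952%, 1.93% and 1.53% of genes). Nothing is read from these counts, because the choice used the same wells.

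The first-ranked member, ENSOMYG00000035727, stood apart from the other 49. It is the most abundant member in solvent wells, and its lowest L over the 3 chosen concentrations was 1.68, against 0.87 for the member ranked 2. In solvent wells its level averaged 558.2 ± 61.4 CPM (SD, n = 15), with a lowest value of 463.7, a median of 567.8 and a highest value of 644 CPM. At 0.02 diz the 3 wells of replicates 1 to 3 had 541.4, 633.8 and 647.7 CPM, at 0.07 diz 573.5, 716.6 and 755.7 CPM, and at 0.22 diz 723.1, 914.7 and 749.9 CPM. Wells at 0.02 and 0.07 diz thus overlapped the solvent wells in part, while all 3 at 0.22 lay above them. No start of a response to diz is read from this. Over the 3 lowest concentrations together, this gene's L against the same solvent wells was 0.33 for diz. It was 0.45 for clp, 0.41 for diq, 0.36 for ampa, 0.35 for per, 0.34 for dic and 0.33 for car and mbz. It was 0.23 for dip, 0.22 for smet and, over the 2 lowest, 0.05 for dca. At 0.65 diz the wells had 556.9, 1199 and 766.1 CPM and at 1.95 diz 1014, 1260 and 1364 CPM. At 0.65, 1 well lay within the solvent range, and the other wells, like all 3 at 1.95, lay above it. The 3 highest concentrations gave 2029.6, 1641 and 1730.4 CPM at 5.85, 2691, 3609 and 2847 CPM at 17.55, and 2338, 2464 and 3132 CPM at 52.65. All 9 of these wells were above the highest solvent well, and the wells at 17.55 and 52.65 overlapped each other.

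**Figure D1:**
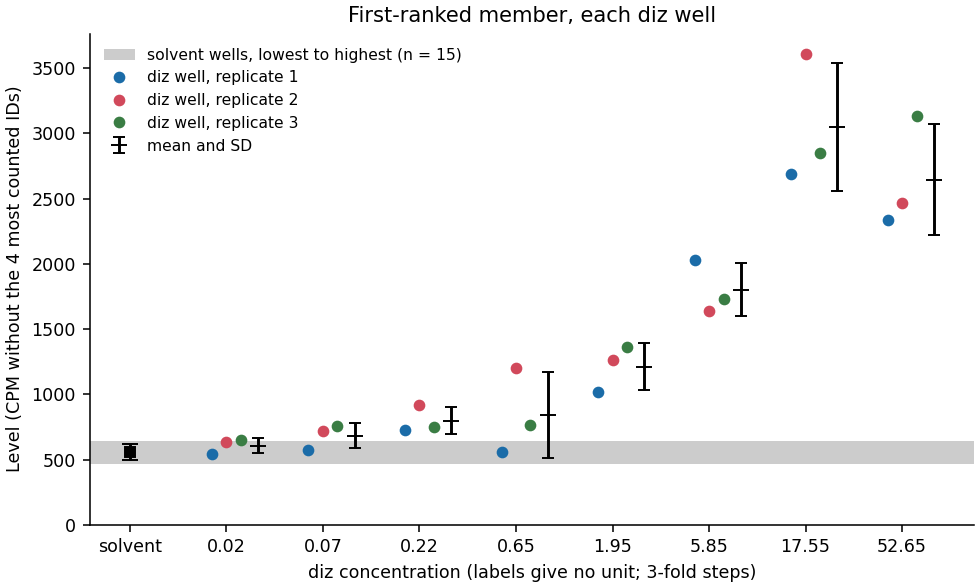
Level of the first-ranked member (CPM after setting aside the 4 most counted IDs, linear axis) in every diz well, by concentration from low to high, with the solvent wells at the left; coloured points are the wells of replicates 1 to 3, black marks the mean and SD, the grey band the lowest to highest of 15 solvent wells. All 3 wells lie above the solvent band at 0.22 and from 1.95 upward, and the mean is 3049 CPM at 17.55 and 2644 CPM at 52.65. Over the lowest concentrations L was 0.33 for diz and 0.05 to 0.45 for the other chemicals of its batch.

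The rise of this gene over the series was gradual. Over the 3 lowest diz concentrations together, this gene lay no higher above solvent than in several other chemicals. Its mean was 607.6 ± 57.8 CPM at 0.02, 681.9 ± 95.9 at 0.07, 795.9 ± 103.7 at 0.22, 840.5 ± 327.2 at 0.65, 1213 ± 179.4 at 1.95, 1800.3 ± 203.6 at 5.85, 3049 ± 491.1 at 17.55 and 2644 ± 426.7 CPM at 52.65 (SD, n = 3 each). L was 0.14, 0.32, 0.54, 0.55, 1.12, 1.68, 2.42 and 2.23 over the same concentrations. The means at 0.02 and 0.07, at 0.22 and 0.65, and at 17.55 and 52.65 differed by less than the larger SD of each pair. Those at 0.07 and 0.22 differed by more than either SD, but their wells overlapped. Over all 149 groups of wells of the study, the 3 highest means of this gene were those of diz at 17.55, 52.65 and 5.85. These 3 groups had been used in the choice. In the 463 wells without diz its level ran from 114.2 to 1977 CPM with a median of 637.9 CPM, and 7 of the 9 wells at the 3 highest diz concentrations were above the highest of these. The highest such well held met at 18.82, and 3 wells without diz exceeded the lowest of the 9.

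The next 9 members had median solvent levels of 18 to 45.2 CPM. Their diz wells overlapped the solvent wells, except those of the member ranked 8 at 17.55. For the member ranked 2 the solvent wells had a lowest value of 4.88, a median of 36.1 and a highest value of 87.2 CPM. Its wells at the 3 highest concentrations had 112.4, 48.1 and 80.7 CPM at 5.85, 121.7, 81.3 and 59.5 CPM at 17.55, and 150.1, 24.2 and 63.4 CPM at 52.65. In each of these groups 1 well, that of replicate 1, lay above the highest solvent well and the other 2 lay within the solvent range. It also had 121, 69 and 46.6 CPM at the lowest concentration, 0.02, and these wells lay within the range of those at 52.65.

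For the member ranked 4 the solvent wells ran from 0 to 45.1 CPM with a median of 25.2 CPM. The diz wells had 56.2, 16 and 58.7 CPM at 5.85, 67.6, 32.5 and 102 CPM at 17.55, and 42.9, 72.5 and 50.7 CPM at 52.65. In each of these groups 2 of 3 wells were above the highest solvent well. These levels rest on 2 to 12 counts per well. Among ranks 2 to 10, the member ranked 8 was the one with all 3 wells of a concentration above the highest solvent well, 48.9 CPM, with 54.1, 65 and 76.5 CPM at 17.55. For ranks 3, 5, 6, 7, 9 and 10, at most 2 of 3 wells of any of the 3 highest concentrations exceeded the highest solvent well.

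The limit of membership fell in a dense part of the ranking. The lowest L was 0.389, 0.389 and 0.385 for the 3 members just inside it, ranks 48 to 50, and 0.378, 0.372 and 0.372 for the 3 genes just outside. The member ranked last had 50, 64.1 and 117.3 CPM at 5.85, 121.7, 65 and 42.5 CPM at 17.55 and 96.5, 84.5 and 76.1 CPM at 52.65, against a lowest value of 13.7, a median of 62.5 and a highest value of 85.4 CPM in solvent wells. The first gene outside had 162.4, 74.8 and 88 CPM at 5.85, 175.8, 65 and 68 CPM at 17.55 and 96.5, 60.4 and 63.4 CPM at 52.65, against 17.9, 48.8 and 105.4 CPM in solvent wells. Both sets of wells overlapped the solvent wells.

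Below the 3 chosen concentrations the members' median came closer to solvent but stayed above it. Against the solvent wells, which the choice had used, the median L of the 50 members was 0.31 at 0.02, 0.16 at 0.07, 0.29 at 0.22, 0.52 at 0.65 and 0.45 at 1.95. Over the eligible genes it was -0.08, -0.07, -0.07, -0.07 and -0.12. L was above 0 in 41, 33, 36, 39 and 38 members at these 5 concentrations, against 40.7%, 41.6%, 41.4%, 40.7% and 37% of the eligible genes. Since a low solvent value raises L at all 8 concentrations at once, diz at its 3 lowest concentrations was also taken as the reference. The median L was then 0.21 at 0.65, 0.06 at 1.95, 0.40 at 5.85, 0.54 at 17.55 and 0.59 at 52.65, against -0.01, -0.06, -0.05, -0.09 and -0.03 over the eligible genes. The choice had used the wells at 5.85, 17.55 and 52.65. At 0.65, L was above 0 in 38 of 50 members (76%), against 48.5% of the eligible genes, and at least 0.5 in 5 (10%), against 8.98%. At 1.95, like 0.65 a comparison that shares no well with the choice, L was above 0 in 28 of 50 members (56%), against 44% of the eligible genes, and at least 0.5 in 14 (28%), against 9.83%.

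**Figure D2:**
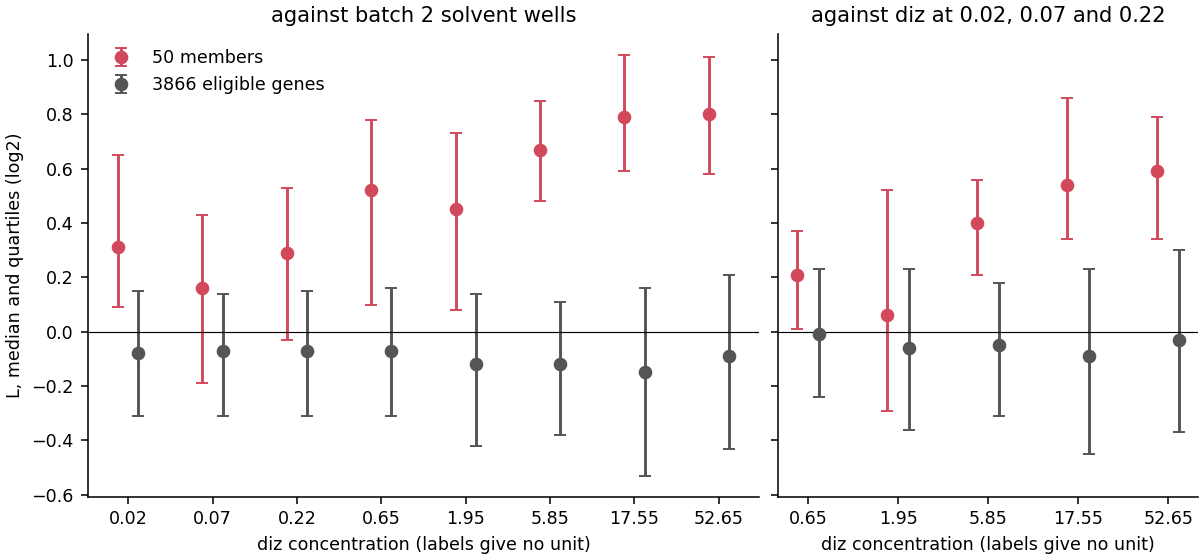
Median and quartiles of L over the 50 members and over all 3866 eligible genes by diz concentration, low to high, with the batch 2 solvent wells as reference at the left and the 3 lowest diz concentrations as reference at the right. Members' medians rise to 0.80 at 52.65 against solvent, which the choice fixed, and at 1.95 lie at 0.45 against solvent and 0.06 against the lowest diz concentrations.

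The members differed in how they ran over the series. The highest of the 3 chosen values of L was at 5.85 in 11 members, at 17.55 in 19 and at 52.65 in 20. In 41 members all 3 chosen concentrations were above the members' own level at the 3 lowest concentrations, and in 14 by at least 0.5, which was so for 530 and 40 of the 3866 eligible genes. The wells at the 3 chosen concentrations had made the choice, so nothing is read from this difference. In 13 members L at 0.02 was higher than the lowest L of the 3 chosen concentrations. The member ranked 7 was among these, with a pooled level of 63.25 CPM at 0.02, 49.6 CPM at 5.85 and 39.2 CPM at 52.65. In 6 members L fell into the order 5.85 above 1.95 above 0.65, with L at each of the 3 lowest concentrations below that at 1.95. The member ranked 15 had no count in its 3 wells at 1.95, beside 37.2 CPM at 5.85 and 28.7 CPM at 0.65.

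**Figure D3:**
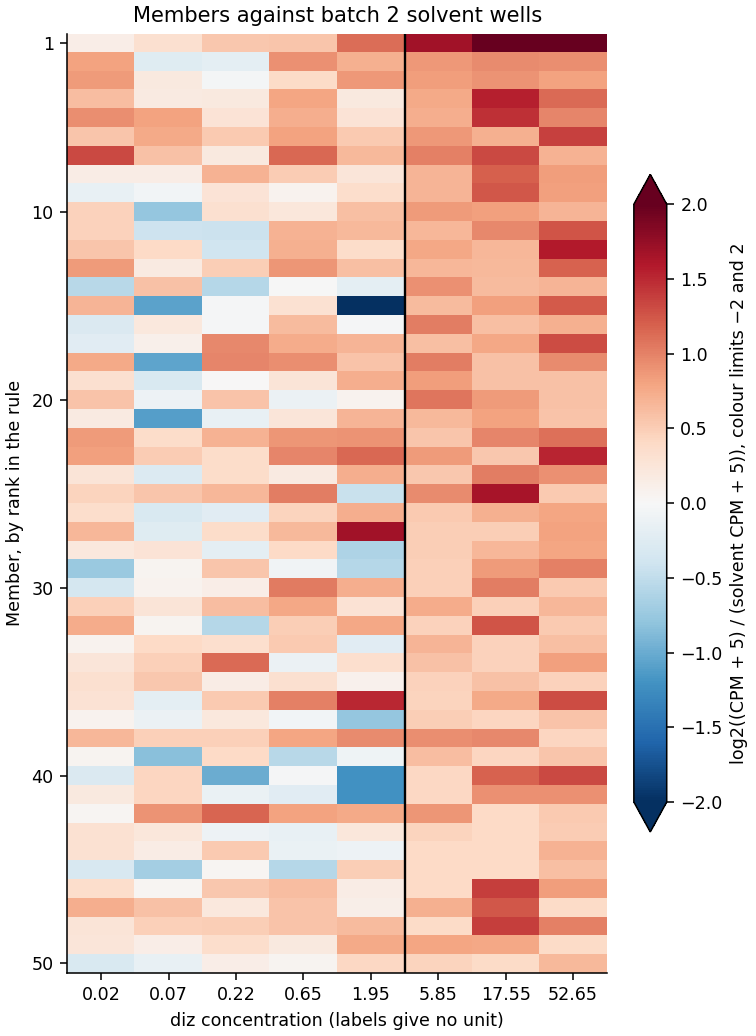
L against the batch 2 solvent wells for each of the 50 members (rows, by rank) at the 8 diz concentrations (columns, low to high); red is above and blue below solvent, and the colours saturate at -2 and 2. The 3 columns right of the black line made the choice and are red throughout; left of it the first row and 16 others stay above 0 at all 5 lower concentrations, and the remaining rows hold at least 1 value at or below 0.

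The test whose contrast shares no well with the choice set diz at 1.95 against diz at 0.02, 0.07 and 0.22, within the diz wells. Its fit held all 24 diz wells, so the count filter, scaling and estimate of spread also drew on the 9 wells of the choice. Of 3239 genes tested with edgeR, 3 were called higher (0.0926%) and 0 lower. Among the 35 members with enough counts, 1 was called higher, the first-ranked one. The 3 wells at 1.95 had 1014, 1260 and 1364 CPM, against a lowest value of 541.4, a median of 716.6 and a highest value of 914.7 CPM in the 9 wells at the lowest concentrations, so the groups did not overlap. The log2 change was 0.85 (SE 0.18), with an adjusted p of 0.0426 in edgeR. The call was lost when any 1 replicate was left out, with log2 changes of 0.79 to 0.87 and adjusted p of 0.151 to 0.747 in edgeR. It was also lost when no gene was filtered for low counts, with an adjusted p of 0.923 in edgeR over 35466 genes. An edgeR fit of the slope over the wells at 0.02 to 1.95 alone gave an adjusted p of 0.0578. No slope over the whole series was fitted. With the plate as a block the adjusted p was 1.33e-04.

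The other 34 members tested at 1.95 had log2 changes of either sign and none passed the adjusted threshold in edgeR. Including the first-ranked member, 5 of 35 had an unadjusted p under 0.05 in either direction, against 169 of 3239 over all genes. The member ranked 15 was among the 5 and was lower, with a log2 change of -4.43 (unadjusted p 0.0181 in edgeR). DESeq2 called 1 member, the first-ranked one. The 35 members' median log2 change was 0.40 against 0.02 over all genes, and 26 of 35 were positive (74.3%), against 52.2% of all genes. A member could enter this count through 3 diz wells alone, such as those at 1.95 or wells of the choice, so the share is not one of all 50. Without the count filter 24 of 50 were positive and the median was -0.08, against -0.21 over all genes. Positive changes were then the minority over all genes too, since their median lay below 0.

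Leaving out a plate gave values for wells that took no part in choosing. The rule was applied to the plates of 2 replicates, and the resulting list of 50 was read in the third plate, diz against the 5 solvent wells of that plate. The eligible genes were also set anew each time, and numbered 3567, 3506 and 3611 without replicate 1, 2 and 3. With replicate 1 left out, L was above 0 at all 3 concentrations for 22 of the 50 genes (44%), against 10.7% of the eligible genes. With replicate 2 left out it was 9 of 50 (18%), against 11.5%, and with replicate 3 left out 19 of 50 (38%), against 11.2%. The share above 0 was thus over the background in the plates of replicates 1 and 3 and nearer to it in the plate of replicate 2. L was at least 0.5 at all 3 concentrations for 7, 2 and 11 of the 50 genes, against 1.77%, 2% and 3.07% of the eligible genes.

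The median L of these lists in the plate left out was 0.46 without replicate 1, 0.08 without replicate 2 and 0.27 without replicate 3. In the plates that made the lists it was 0.81, 0.72 and 0.72, and over the eligible genes in the plate left out -0.12, -0.11 and -0.15. The first-ranked member was first in all 3 lists, and its lowest L in the plate left out was 1.88, 1.55 and 1.62. The other genes of the lists changed with the plates used: 13, 22 and 13 of the 50 members were in the list without replicate 1, 2 and 3, and 3 members were in all 3 lists. Each diz well of a plate was compared with the 5 solvent wells beside it in the same way for the 50 members as chosen. Of the 9 wells at the 3 highest concentrations, all 9 were higher than solvent for 8 members, 8 for 21, 7 for 18 and 6 or fewer for 3. The choice used these wells. Among the 3866 genes eligible with all plates the same counts were 12, 55, 143 and 3656.

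**Figure D4:**
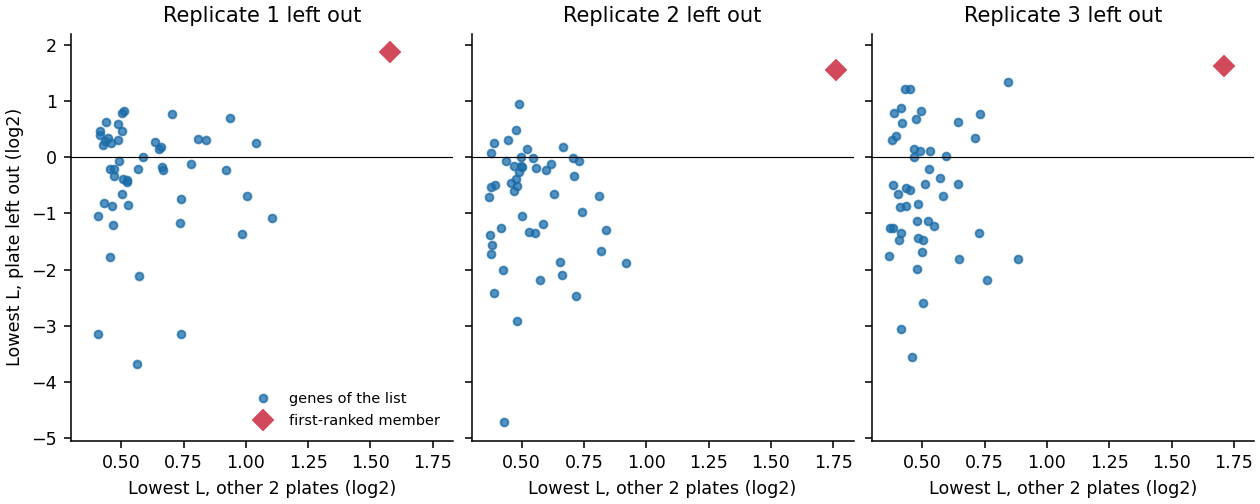
For lists of 50 genes chosen on 2 plates, the lowest L over the 3 highest diz concentrations in those plates (horizontal, log2) and in the plate left out (vertical, log2), for each replicate left out. The red diamond, the first-ranked member, lies at 1.88, 1.55 and 1.62 in the plate left out; of the 50 genes, 22, 9 and 19 lie above 0 there.

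The members' summed level differed between the plates, in diz and in solvent wells alike. Its height at the 3 highest diz concentrations was fixed by the choice. Over ranks 2 to 50, the sum in the wells of replicates 1 to 3 was 3951, 2579 and 2515 CPM at 0.02 diz, 5044, 1996 and 2506 CPM at 1.95, 4839.8, 2539 and 3769 CPM at 5.85, 5300.4, 3446 and 4113 CPM at 17.55, and 4997, 3177 and 3816 CPM at 52.65. Replicate 1 was the highest at each of the 8 concentrations. The solvent wells of its plate were also higher, with 2937 ± 583.5 CPM, against 1837 ± 282.4 CPM for the plate of replicate 2 and 1875 ± 88.1 CPM for that of replicate 3 (SD, n = 5 each). All 9 wells at the 3 highest concentrations exceeded the highest solvent well of their own plate, at 3687, 2154 and 2019.8 CPM, as the choice made likely.

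The solvent wells of the second batch had lower levels of most members than those of the study's first batch, with which diz was not compared. The level was lower in batch 2 for 48 of 50 members, with a median log2 difference of -0.36 for batch 2 minus batch 1, against 48.9% and 0.01 over the eligible genes. The choice favoured such a difference. Batch 2 solvent wells were the reference for diz, and batch 1 solvent wells that for the limit on cln. Nothing about the batches is therefore read from it. The sum over ranks 2 to 50 was 1411 to 3687 CPM with a median of 2012 CPM in the 15 wells of batch 2, and 2061 to 7159 CPM with a median of 3093 CPM in the 24 wells of batch 1. The part of this difference in the members' L was not tested. The first-ranked member did not share the difference, with pooled solvent levels of 555.2 CPM in batch 2 and 560.7 CPM in batch 1.

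The 18 other chemicals were set against their own lowest concentrations, so that neither the solvent wells nor the wells of the choice entered a contrast. The fits of car, cln, mbz and dca still held their wells at the highest concentration, which the choice had used. Those wells thus took part in the count filter, scaling and estimate of spread. For most chemicals the highest concentration was set against the 3 lowest. For car, cln and mbz the second highest was taken, and for dca the second highest against its 2 lowest, because the choice had used the highest. For clp and smet the second highest was taken, because no well at the highest passed the limit on total counts. In the fits without a plate block and with both dca batches together, the first-ranked member rose in 3 chemicals and fell in 1. Within batch 1 alone it also fell in dca, by 1.84 on the log2 scale (adjusted p 0.00312 in edgeR), while within batch 2 the log2 change was 0.16 (adjusted p 1). In dip at 57.64 its wells had 1061, 1145 and 1442 CPM, against a lowest value of 587.9, a median of 648.4 and a highest value of 728.8 CPM in the 9 wells at the lowest concentrations. In met at 56.47 they had 1939, 980 and 1339 CPM, against 418.6, 682.5 and 917.5 CPM, and in smet at 28.47 they had 1165, 1348 and 1393 CPM, against 363.2, 592.8 and 922.1 CPM. In each of these the 3 wells were above all 9.

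The log2 change of the first-ranked member was 0.88 (SE 0.17, adjusted p 7.63e-05) in dip, 1.09 (SE 0.25, adjusted p 0.00114) in met and 1.07 (SE 0.20, adjusted p 0.00238) in smet, in edgeR fits. Leaving out replicate 1 ended the call in met (adjusted p 0.0799) and leaving out replicate 2 that in smet (adjusted p 0.204), and without a count filter both were lost (adjusted p 0.582 in met and 0.78 in smet). In col at 3.99 it was low, with 224.7 and 126.6 CPM in 2 wells from 9 and 4 counts, against 425.6, 682.5 and 895.6 CPM, and the log2 change was -1.31 (SE 0.42, adjusted p 0.0163). That call was lost without replicate 1 or without replicate 3 (adjusted p 0.105 and 0.175 in edgeR), where 1 exposed well remained, assumed to vary like the other groups.

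In 4 chemicals the edgeR call of this gene depended on the block for the plate. In ampa DESeq2 called it without the block (log2 change -0.98, adjusted p 0.0418 in DESeq2). With the block its log2 change was -1.01 in ampa at 27.18, -0.58 in dic at 41.79, -0.77 in diq at 2.06 and 0.77 in thx at 291.71, with adjusted p of 6.65e-04, 0.00115, 0.00208 and 0.0169 in edgeR. Without it the adjusted p was 0.226, 0.485, 0.329 and 0.259. The ampa wells had 209.4, 318.3 and 435.1 CPM, against 690.4 ± 98.5 CPM (SD, n = 9) in the wells at the lowest concentrations, and the groups did not overlap. The 2 thx wells had 1356 and 1091 CPM, both above the 9 lowest-concentration wells, and 1 of them had a total of 25729 counts.

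**Figure D5:**
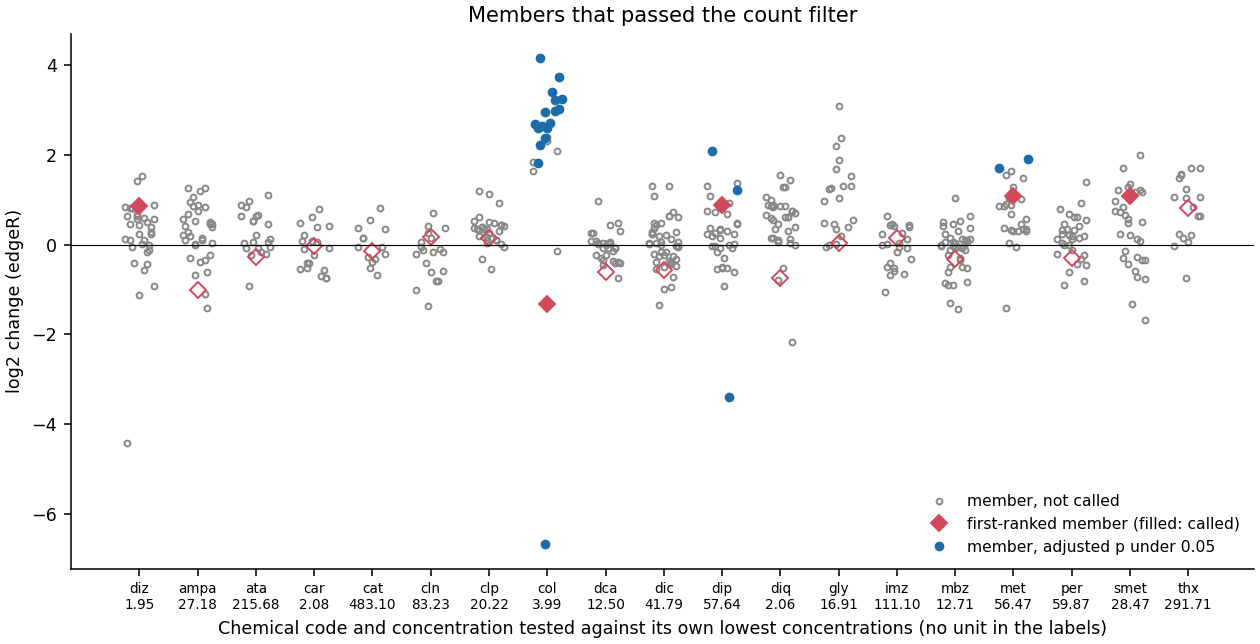
Log2 change (edgeR) of the members that passed the count filter, for diz at 1.95 at the left and for each other chemical at the concentration given under its code, set against that chemical's own lowest concentrations; filled marks passed an adjusted p of 0.05, and red diamonds are the first-ranked member. Most filled blue points lie in col, 16 of them at 1.81 to 4.16 and 1 at -6.67, a gene with 0 counts in the exposed wells. The others are at -3.40, 1.21 and 2.07 in dip and at 1.71 and 1.91 in met, and the red diamond is filled at 0.85 in diz, 0.88 in dip, 1.09 in met, 1.07 in smet and -1.31 in col.

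Among the other members, calls in other chemicals were mostly in col. In col 24 members passed the count filter, and 16 were called higher and 2 lower, against 15.8% and 20.8% of the 1622 genes tested. The log2 changes of the 16 were 1.81 to 4.16 with a median of 2.83. Without a count filter, which also changes the scaling, they were 0.58 to 2.76 with a median of 1.65, each lower by 1.16 to 1.40, and that of the first-ranked member was -2.50. Without replicate 3, 9 of the 16 could be tested and 2 of those were called higher, against 6.07% of 1978 genes. A weakly counted gene could pass the filter in col through its 2 exposed wells alone, and such a gene had to be high there, so the count of 16 supports nothing about the 50. Without a filter, 3 of 50 were called higher (0.424% of 32287 genes) and 2 lower (1.62%), and with a filter on the mean count over all wells, added after seeing the data, 12 of 21 were called higher (9.52% of 2364 genes). The 2 exposed wells had totals of 101786 and 77699 counts, against 77745 to 446447 in the 9 wells at the lowest concentrations, and the 16 members had 1 to 25 counts in an exposed well.

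Examples in col are few-count genes with large differences. ENSOMYG00000034215, ranked 48, had 174.8 and 537.9 CPM in 2 wells, from 7 and 17 counts, against a lowest value of 12.9, a median of 40.3 and a highest value of 92.2 CPM in the lowest-concentration wells, and a log2 change of 3.74 (SE 0.55, adjusted p 1.8e-05 in edgeR). The member ranked 32 had 49.9 and 411.3 CPM, against 0, 12.9 and 40.2 CPM, with a log2 change of 4.16 (adjusted p 0.00126 in edgeR), and the member ranked 3 had 124.8 and 474.6 CPM, against 15, 40.3 and 103.2 CPM, with 3.39 (adjusted p 0.00147 in edgeR). The last call was lost without replicate 3 (adjusted p 0.371 in edgeR), where the members ranked 32 and 48 did not pass the count filter. In the other direction, ENSOMYG00000046965, ranked 49, had 0 counts in both exposed wells, against 82.1, 137 and 333.1 CPM. Set against 3 counts over the 2 wells, it was at least 3.22-fold lower, with an adjusted p of 0.0348 in edgeR that was 0.148 without replicate 3 and 0.154 without replicate 1.

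In 3 more chemicals members were called. In dip, 36 members were tested, of which 3 were called higher and 1 lower, against 18.3% and 19.4% of 3705 genes. ENSOMYG00000007311, ranked 44, was the lower one, with 1, 1 and 0 counts in the 3 wells at 57.64 (6.98, 3.74 and 0 CPM), against a lowest value of 0, a median of 35.2 and a highest value of 131.5 CPM. Its groups overlapped, the log2 change was -3.40 (SE 0.97, adjusted p 0.00511 in edgeR), and the call was lost without replicate 2 (adjusted p 0.163), without replicate 3 (0.0717) and in the slope fit (0.0703). The member ranked 4 was one of the higher ones, with 167.6, 63.6 and 71.2 CPM, against 0, 21.1 and 58.3 CPM, so that its wells did not overlap (log2 change 2.07, adjusted p 0.0116 in edgeR). That call was lost without replicate 1 (adjusted p 0.117), without replicate 2 (0.0507) and in the slope fit (0.192). In met 3 of 26 members were called higher and 0 lower, against 11% and 19.9% of 3129 genes (30.9% in either direction), with 6 higher under the plate block (13.3%). The member ranked 50 had 141, 118.8 and 213 CPM in met from 8, 4 and 7 counts, against a lowest value of 0, a median of 39 and a highest value of 80.1 CPM (log2 change 1.91, adjusted p 0.0128 in edgeR). It was no longer called without replicate 1 (adjusted p 0.0522), without replicate 3 (0.137), without a count filter (0.313) and in the slope fit (0.198). In smet the first-ranked member was the 1 called of 32, against 0.0783% of 3832 genes called higher. The share of members called higher was 8.33% in dip, against 18.3% of all genes. In met it was 11.5%, against 11%, without the block and 23.1%, against 13.3%, with it. As in col, a weakly counted gene could pass the filter in these chemicals through its exposed wells alone, so these shares support nothing about the 50.

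In the remaining 14 chemicals no member was called in edgeR without the block, where 0% to 0.421% of all genes were called in either direction. That share was 0.0386% in cln, 0.0542% in diq, 0.0562% in dca, 0.059% in per, 0.0678% in clp, 0.0889% in mbz, 0.244% in dic, 0.421% in thx and 0% in ampa, ata, car, cat, gly and imz. Of 396 pairs of a member and one of these chemicals, 25 (6.31%) had an unadjusted p under 0.05, against 4.72% over all genes, and DESeq2 called 1, the first-ranked member in ampa. With the block, members called higher were 3 of 22 in gly (1.62% of genes) and 2 of 19 in thx (2% of genes). A weakly counted gene could pass the count filter there through its exposed wells alone, so these shares are not ones of all 50. Members called lower with the block were 2 of 46 in dic (0.244% of genes), 1 of 35 in ampa (0.0538%) and 1 of 36 in diq (0.108%). Each of these held the first-ranked member, and the second in dic was the member ranked 47, with a log2 change of -1.38 (adjusted p 4.93e-05 in edgeR with the block), named after its value was seen. In gly the 22 members tested had a median log2 change of 1.01 against 0 over all genes, and without the count filter the median over all 50 was 0.13 against -0.39.

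For several other chemicals of the same batch, wells at the lowest concentrations also lay above the batch 2 solvent wells in the members' median. The diz and batch 2 dca wells of a plate shared a library with its solvent wells. Those of clp, diq, car and ampa were in other libraries of the plate, as were those of col in batch 1. For these chemicals a difference from solvent cannot be told apart from one between libraries. The median L of the 50 members over the 3 lowest concentrations, against the solvent wells that made the choice, was 0.27 for diz, 0.28 for dip, 0.26 for clp, 0.23 for diq, 0.21 for per and 0.12 for dic. It was 0.04 for mbz, -0.06 for car, -0.10 for smet and -0.11 for ampa, and 0.10 over the 2 lowest of dca in batch 2. Over the eligible genes these medians were -0.06 to -0.03. The median of diz at its lowest concentrations thus lay within the range of the other chemicals of its batch. At the tested concentration the members' median L against solvent was 0.58 for dip at 57.64 and 0.53 for clp at 20.22. The 0.79 and 0.80 of diz at 17.55 and 52.65 were set by the choice, so no ranking of diz above these chemicals is read from them. L was at least 0.5 in 29 members in dip and in 26 in clp, against 26.5% and 5.43% of the eligible genes. Among eligible genes under 50 CPM in solvent, where most members lay, these shares were 29.7% and 9%. With each chemical set against the solvent wells of its own batch, the highest median among the other chemicals was that of col at 3.99. It was 0.64 against -0.91 over the eligible genes, with L of at least 0.5 in 28 members, against 16.8%. Among eligible genes under 50 CPM in solvent that share was 23.7%. Col belonged to batch 1 and was compared with batch 1 solvent wells, so its values do not share the reference of dip, clp and diz.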

How the data were processed

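Wells were single wells of RTgill-W1 cells, with well-tagged libraries pooled before sequencing (QIAseq UPXome, per the labels' protocols). The authors deposited raw counts, whole numbers for each well and Ensembl ID. Read alignment, counting and genome build: not given in the sources used here. Reads of near-identical gene copies may be shared. Of 501 wells, 14 with very low totals were left out (0 of them diz), which left totals of 24620 to 786151. The 4 IDs set aside held 46.3% of counts. The members and lists were chosen with earlier results of these data known. Planned gene lists and cell markers were not applied, because no ID had a name. Named are ranks 1 to 10, 48 to 50, the 3 genes just outside, members called at 1.95 diz and the 5 largest changes called elsewhere; at most 4 are given by ID. Ranks 7 and 15 in the account of the series were chosen after their values were seen.

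Tests were two-sided edgeR 4.0.16 quasi-likelihood fits (TMM, filterByExpr) in R 4.3.3, 1 fit per chemical, adjusted by Benjamini-Hochberg over all genes tested; DESeq2 1.42.0, other filters, the slope and left-out replicates were alternatives. The scripts were tested on simulated data. Tables and figures used Python 3.11.15, pandas 2.3.3 and matplotlib 3.10.9. Replicate numbers mark plates and passages and pair the wells: over diz wells at 0.02 to 1.95 and 3151 genes, deviations from group means correlated by a median of 0.234, 0.138 and 0.139 within plates and -0.0991 between plates. The fit without a plate block is given first. In 44260 IDs, no pair of a member and another gene agreed in over 21.3% of wells.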

Additional observations from a re-analysis of the deposited data

Results flagged for a closer look

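ENSOMYG00000035727, the first-ranked member, responded differently to dca in the 2 batches in which dca was measured. At 12.50 its lowest, median and highest levels in 3 wells were 576.3, 596.6 and 702.2 CPM in batch 2, against 462.7 to 724.7 CPM in the 6 wells of that batch at the 2 lowest concentrations. In batch 1 they were 114.2, 129.3 and 204.1 CPM, against 376 to 668.5 CPM. The log2 change was 0.16 (SE 0.24, adjusted p 1 in edgeR) within batch 2 and -1.84 (SE 0.31, adjusted p 0.00312 in edgeR) within batch 1. The difference, batch 2 minus batch 1, was 1.99 (SE 0.39, adjusted p 0.0375 in an edgeR interaction test over 3561 genes, chosen after seeing the data), and it was the 1 gene called among them. Batch, plates and passages cannot be told apart here. The 24 solvent wells of batch 1 ran from 229.4 to 781.3 CPM, so the 3 batch 1 wells at 12.50 lay below all of them.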

How the results depend on the processing

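Of the 50 members, 42 remained with 1 CPM added instead of 5 and 49 with all wells kept, but 29 with mean CPM over wells, 17 with diz at 0.02 to 0.22 as the reference, 11 with no ID set aside (31 members then fall under 20 CPM in solvent), and 13 to 22 with a replicate left out. The first-ranked member stayed first in all of these. At 1.95 diz, the 1 member called became 0 with no count filter, 0 in the slope fit and 0 with each replicate left out (0 to 0); DESeq2, the replicate block, removal of the 4 most counted IDs, all wells kept and the added filter on mean count each called 1. Calls in other chemicals numbered 26 pairs of a member and a chemical (23 higher, 3 lower). They numbered 10 with no count filter, 43 with the replicate block and 8 to 26 with a replicate left out, the lowest without replicate 3 (16 without replicate 1), and 21 to 29 under the other alternatives. No alternative reversed the direction of the first-ranked member's calls or of the 5 largest changes called elsewhere. Changes that were not called could turn: that of the first-ranked member in ata was -0.27, and 0.15 without replicate 2. The cause of a lost call was not tested. Without a count filter the members' log2 changes themselves moved, by a median of -1.25 in col, -0.59 in met, -0.50 in thx, -0.38 in gly and -0.19 in diz, and by -0.24 to 0.20 in the other chemicals. Depth limits the weakly counted members most: a median member had 4 counts in a solvent well.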
